A study of Mus musculus with 24 samples.

Results

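Ionotropic and metabotropic glutamate receptor genes and the genes of their auxiliary subunits, 33 mouse genes in 9 classes, were examined for cytosine methylation in the dentate gyrus. They do not include every such gene. Gria3, an AMPA receptor subunit, was left to a list of further genes that is described below. A CpG (a cytosine followed by a guanine) was assigned to one of these genes when it lay inside the gene or within 2000 bases of it in the GENCODE M21 annotation of the mm10 genome, so the choice used no measured value. All 33 genes held at least 1 measured CpG, out of 17692 protein-coding genes that did. Together they held 2152 of the 762162 CpGs in the table (0.282%), from 9 in Grm3 to 186 in Grik4, with a median of 63 against 29 over all protein-coding genes. By position, 877 lay in promoters (within 1000 bases of a transcript start), 330 in exons, 849 in introns and 96 in flanks. Regions with at least 5 CpGs were compared as regions, which left 27 promoters, 9 exons, 26 introns and 6 flanks, 68 in all.

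Methylation was measured by RRBS (reduced representation bisulfite sequencing), a method restricted to the CpG-rich fragments of DNA that an enzyme releases by cutting at CCGG. The mice were female C57BL/6JRj animals and the tissue was the micro-dissected dentate gyrus of the hippocampus. The 5 Young STD mice were 1.5 months old and lived in standard cages (STD). The 7 Aged STD mice were 14 months old and lived in the same kind of cage. The 7 Aged ENR mice were also 14 months old and lived in environmental enrichment (ENR), a large enclosure with toys, from young adulthood on. No group carried a transgene, and each library came from 1 mouse. The labels also describe 5 Young ENR mice, which were not analysed here. Because the tissue is a mixture of granule neurons, glia and other cells, a lower methylation per cell and a different share of cell types cannot be told apart in any value given here.

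Glutamate is the main excitatory transmitter of the hippocampus. AMPA receptors carry the fast synaptic current, NMDA receptors admit calcium when the cell is already depolarised, and kainate receptors tune release and excitability, whereas metabotropic receptors act through G proteins. Transmembrane AMPA receptor regulatory proteins (the Cacng genes), cornichon homologues (Cnih2 and Cnih3) and Neto proteins are not receptors themselves but bind AMPA or kainate receptors and set their trafficking and gating. Methylation of a CpG-rich promoter usually goes with a silent gene, while methylation inside gene bodies is common in transcribed genes, and enhancers within introns often lose methylation when they are active.

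The contrast between CpG-rich starts and sparse introns is visible in the stretches printed below. They were read from the GRCm38 genome (the build of mm10) on the plus strand. Those in Grik1 and Grik4 surround a CpG named for its difference. Each of the others is the part of its region densest in measured CpGs. A stretch holds only some of the measured CpGs on which the results for its region rest. Every CpG with a measured cytosine is in capitals. The Gria2 promoter stretch (chr3:80802807-80802906) covers the gene's transcript start, and all 13 of its measured CpGs were at 0% in the 3 Young STD mice with a value there. The Grin2a promoter stretch (chr16:9992319-9992479) lies 64 bases from a transcript start and averaged 6.05% over its measured cytosines. The Cacng3 promoter stretch (chr7:122670667-122670799) lies 186 bases from a start and averaged 7.84%. The remaining stretches are intronic, at chr16:9758736-9758851 in Grin2a, chr4:49673738-49673886 in Grin3a, chr16:88212351-88212450 in Grik1, chr7:87902543-87902642 in Grm5 and chr9:42569106-42569275 in Grik4. They averaged 26.3%, 87.6%, 85.0%, 97.8% and 45.9% in the Young STD mice in that order. These are means over the CpGs of a stretch, each measured in 3 to 5 of the young mice. Whole introns could differ from them, as in Grin2a (57.6%) and Grm5 (66.8%).
Gria2 promoter: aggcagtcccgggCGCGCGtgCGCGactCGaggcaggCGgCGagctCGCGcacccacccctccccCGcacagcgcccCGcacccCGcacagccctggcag
Grin2a promoter: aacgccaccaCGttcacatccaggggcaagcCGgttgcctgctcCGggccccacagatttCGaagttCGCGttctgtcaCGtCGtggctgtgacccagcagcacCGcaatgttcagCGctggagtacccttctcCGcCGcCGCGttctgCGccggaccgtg
Cacng3 promoter: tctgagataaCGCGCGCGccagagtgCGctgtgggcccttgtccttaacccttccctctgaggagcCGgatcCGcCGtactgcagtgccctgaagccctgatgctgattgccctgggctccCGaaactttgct
Grin2a intron: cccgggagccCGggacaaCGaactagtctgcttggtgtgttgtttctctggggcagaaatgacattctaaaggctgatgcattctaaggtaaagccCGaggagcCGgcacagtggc
Grin3a intron: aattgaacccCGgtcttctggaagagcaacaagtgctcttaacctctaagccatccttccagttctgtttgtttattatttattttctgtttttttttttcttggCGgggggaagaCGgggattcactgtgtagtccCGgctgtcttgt
Grik1 intron: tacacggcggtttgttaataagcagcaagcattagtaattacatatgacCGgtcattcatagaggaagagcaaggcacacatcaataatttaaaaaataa
Grm5 intron: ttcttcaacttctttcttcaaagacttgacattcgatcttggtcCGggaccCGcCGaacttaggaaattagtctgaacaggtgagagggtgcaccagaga
Grik4 intron: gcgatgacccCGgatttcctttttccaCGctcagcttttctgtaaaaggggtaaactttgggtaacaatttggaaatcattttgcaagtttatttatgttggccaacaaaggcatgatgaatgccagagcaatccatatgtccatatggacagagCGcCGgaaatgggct

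The Gria2 promoter stretch held 15 CpGs in 100 bases, with 80% G and C. The Grin3a intron stretch held 4 in 149 bases, with 43.6% G and C, and the Grik4 stretch held 5 in 170 bases. Promoter sequences of 300 bases from RefSeq (mm10) were matched for 23 of the 33 genes. These had a median of 17 CpGs, 63.3% G and C and an observed-to-expected CpG ratio of 0.641, where 16522 genes with such a sequence had medians of 14 CpGs, 57.0% and 0.598. The motif GGGCGG, the GC box, was found on either strand in 13 of the 23 (56.5%) and in 48.0% of all promoters. CCGG, the cut site of the assay, was in 16 (69.6%) against 63.4%, and TGACGTCA, the cyclic AMP response element, in 0 against 2.43%. CCGG and GGGCGG can share letters where they meet, and a match is a description of the sequence only.

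Depending on the mouse, 64.3% to 95.2% of the 762162 CpGs carried a value, and 196 of the 2152 receptor gene CpGs (9.11%) were measured in all 19 mice. The numbers of reads are unknown, so no interval can be given for a single percentage. Over CpGs measured in every mouse, the mean level was 20.5% ± 1.07 (SD, n = 5) in Young STD, 18.5% ± 1.79 (n = 7) in Aged STD and 19.3% ± 1.07 (n = 7) in Aged ENR mice. The libraries differed in which CpGs they covered. The CpGs covered in a mouse had a mean Young STD level, used here as an index of library composition, of 30.5% to 32.1% in Young STD, 19.5% to 38.0% in Aged STD and 23.4% to 36.2% in Aged ENR mice. For that reason, region values were computed after each CpG had been centred on its mean over the groups, and such values can fall slightly below 0% or above 100%. Libraries came from 2 number series, 27 (3, 4 and 4 mice of the groups in the same order) and 37 (2, 3 and 3 mice). Differences within each series are given for the 6 regions with the smallest p in each comparison, for some further introns and for the CpG whose groups did not overlap.

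Promoters of the receptor genes in the 9 classes were nearly unmethylated. Gria3, which was not among them, had a promoter at 28.8% in Young STD mice and is not part of the values in this paragraph. In Young STD mice, 26 of 27 promoters were under 10% (96.3%, against 80.9% of 13215 promoters of all protein-coding genes) and 23 were under 5%. Their median was 1.61%, within a range of 0.465% to 13.1%, and the median of all promoters was 1.90%. By class, the median promoter was 1.00% for AMPA receptor subunits, 2.84% for NMDA receptor subunits, 2.85% for kainate receptor subunits, 1.55% for group III metabotropic receptors and 2.00% for AMPA receptor auxiliary subunits. These class medians lay closer together than the genes within the kainate class, from 1.16% in Grik2 to 13.1% in Grik5.

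Gria2, whose subunit makes AMPA receptors impermeable to calcium, had a promoter (23 CpGs) at 2.29, -0.602, 2.52, 0.468 and 0.340% in the 5 Young STD mice. The Aged STD mice lay between -1.44% and 8.06% (median 0.867%) and the Aged ENR mice between -0.0717% and 3.01% (median 0.595%). All 3 groups overlapped around 1%. The Gria4 promoter (13 CpGs), the lowest of all with a mean of 0.465% ± 0.635 in Young STD mice, held -0.0713, 0.262, 0.651, 0 and 1.48% there, 0 to 5.72% (median 1.57%) in Aged STD and -0.133% to 4.30% (median 0.935%) in Aged ENR mice. Grin2a and Grin2b, the glutamate-binding subunits of most NMDA receptors in the forebrain, were low as well. The Grin2b promoter (35 CpGs) was at 1.95, 1.35, 2.09, 1.60 and 1.05% in Young STD mice, with Aged STD mice at 0.767% to 2.51% (median 1.76%) and Aged ENR mice at 0.582% to 3.26% (median 1.43%). The Grin2a promoter (76 CpGs, the most of any) was at 3.22, 3.78, 5.36, 1.32 and 6.70%, with 2.00% to 4.15% (median 2.58%) in Aged STD and 0.709% to 8.56% (median 3.11%) in Aged ENR mice.

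Among the other genes followed by mouse, Grid1, a delta receptor that binds cerebellins rather than passing glutamate-gated current, had a promoter (49 CpGs) at 0.489, 0.0632, 0.497, 1.46 and -0.168% in Young STD mice. Aged STD mice were at -0.143% to 1.59% (median 0.382%) and Aged ENR mice at -0.477% to 3.75% (median 0.242%). Grm2, an inhibitory autoreceptor of group II, stood at 1.15, 1.56, 2.93, 0.443 and -0.136% over 17 promoter CpGs, with -0.0486% to 4.41% (median 1.13%) and 0% to 5.57% (median 2.14%) in the aged groups. The values of these genes spread by a few points in every group and overlapped throughout. Cnih2 (8 promoter CpGs) was at 1.22, 2.00, 2.75, 0.595 and 0.962% in Young STD, 0.496% to 6.04% (median 1.88%) in Aged STD and -0.730% to 4.69% (median 1.69%) in Aged ENR mice. Neto2 (37 promoter CpGs), an auxiliary subunit of kainate receptors, was at 1.06, 2.05, 3.07, -0.412 and 0.104%, then -0.957% to 1.69% (median 0.144%) and -0.372% to 5.20% (median 0.935%). The promoter of Neto1, its paralog, averaged 1.09% ± 1.84 in Young STD mice (n = 5). The group III receptors Grm6, known from retinal bipolar cells, and Grm7, a presynaptic receptor, were as low, with Young STD values of 1.34, 1.38, 0.388, 0 and -0.0608% (17 CpGs) and of 2.76, 0.512, -0.136, 0 and -0.141% (25 CpGs). Aged STD mice lay at 0% to 2.70% (median 0.876%) for Grm6 and at -0.128% to 1.47% (median 0.434%) for Grm7. Aged ENR mice lay at -0.00956% to 2.50% (median 1.24%) for Grm6 and -0.128% to 3.38% (median 0.0664%) for Grm7.

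A few promoters stood above this floor. Grik5, an obligate partner of other kainate receptor subunits, was at 11, 13.3, 12.7, 16.4 and 12.0% over 28 CpGs in Young STD mice, at 9.21% to 15.4% (median 11.9%) in Aged STD and at 7.77% to 12.9% (median 11.9%) in Aged ENR mice. Grm4, a presynaptic group III receptor, was at 7.29, 6.43, 7.10, 19 and 7.06% over 30 CpGs, so that a single mouse raised its mean of 9.37% ± 5.39. Its aged mice ranged from 2.43% to 18.5% (median 8.83%) in STD and from 3.25% to 13.9% (median 8.72%) in ENR. Grin3b, a glycine-binding NMDA receptor subunit, was at 5.48, 9.02, 6.78, 6.28 and 9.21% over 23 CpGs, with 2.47% to 8.81% (median 6.24%) in Aged STD and 3.14% to 14.7% (median 7.19%) in Aged ENR mice. In Young STD mice the lowest Grik5 value (11%) was above every Grin3b value, whereas Grm4 overlapped both.

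Introns of the same genes carried far more methylation and differed widely from gene to gene. The 26 introns had a median of 41.2% in Young STD mice, from 7.21% in Cacng8 to 88.5% in Grin3a, and the 6029 introns of all protein-coding genes had a median of 59.1%. At 60% or above were 10 of the 26 (38.5%), against 48.7% of all introns. Among the classes with more than 1 intron, group III metabotropic receptors had the highest median (69.5%, 4 introns). NMDA receptor subunits (44.6%, 5 introns), kainate receptor subunits (40.9%, 5 introns) and AMPA receptor auxiliary subunits (38.6%, 8 introns) lay lower. Genes of one class were far apart, from 34.8% to 88.5% in the NMDA class, 40.6% to 76.2% in the kainate class and 7.21% to 72.1% among the AMPA receptor auxiliary subunits.

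**Figure D1:**
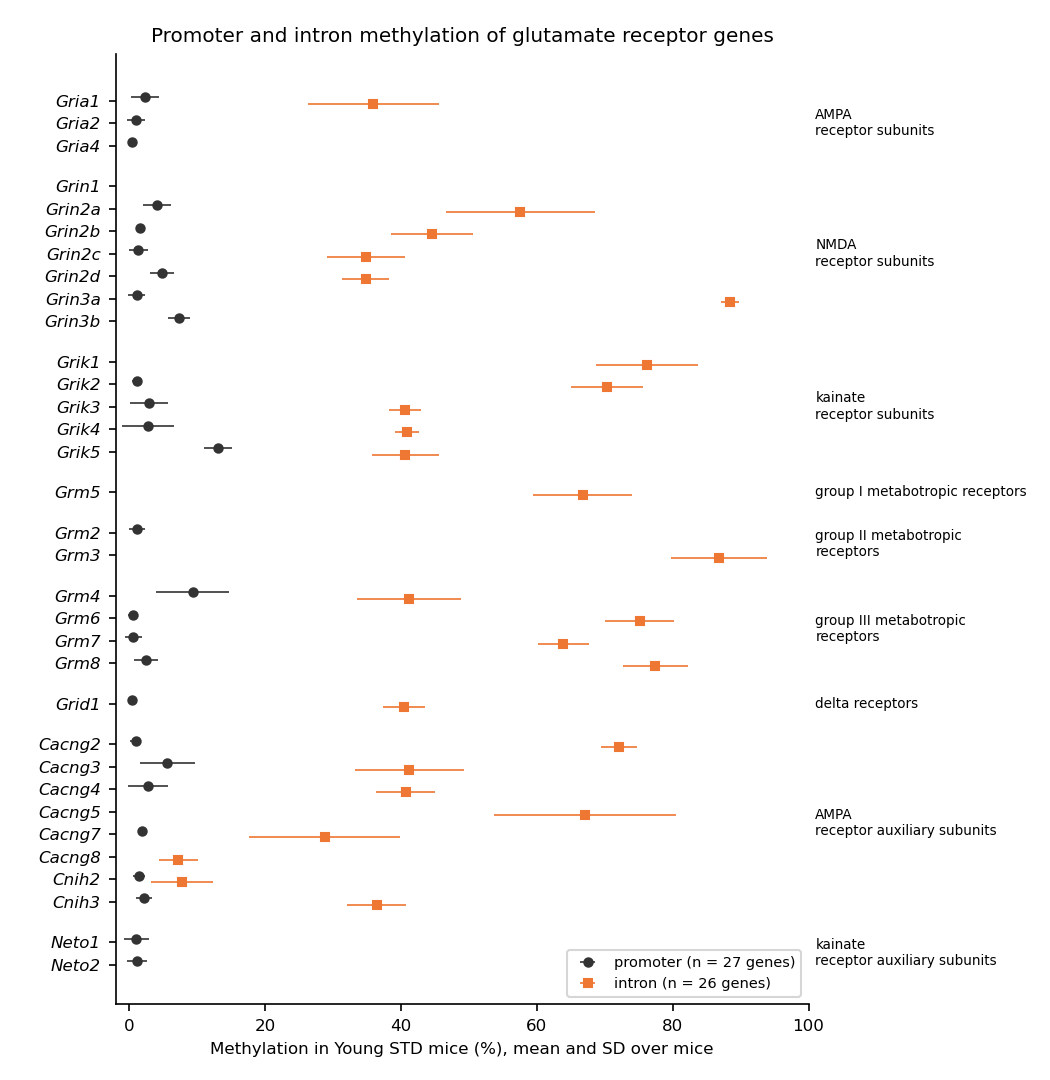
Methylation of promoters (dark circles, 27 genes) and introns (orange squares, 26 genes) of the glutamate receptor genes in Young STD mice, grouped by receptor class. The x axis is in percent, with mean and SD over the mice with a value, at most 5. Promoters sit between 0.465% and 13.1%, while introns run from 7.21% (Cacng8) to 88.5% (Grin3a), and a gene without a symbol had fewer than 5 CpGs in that region.

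Grin3a, which encodes a glycine-binding subunit that lowers the calcium flow of NMDA receptors, was the most methylated at 88.8, 90.5, 87.2, 87.2 and 88.7% over 22 intron CpGs in Young STD mice. Aged STD mice ranged from 74.4% to 99.7% (median 86.8%) and Aged ENR mice from 80.3% to 94.8% (median 83.9%). The young values were within a few points of each other, and the aged ones spread on both sides of them. Grm8 (41 CpGs) was at 78.4, 71.4, 73.8, 80.9 and 82.8%, with 55.8% to 83.7% (median 79.0%) in Aged STD and 70.3% to 83.8% (median 81.6%) in Aged ENR mice. Cacng8, the regulatory protein that is abundant in hippocampal AMPA receptors, was the lowest, at 4.87, 6.54, 4.42, 11.2 and 8.96% over 45 intron CpGs. It was at 4.10% to 9.93% (median 7.71%) in Aged STD and 4.41% to 10.1% (median 7.83%) in Aged ENR mice. Its 59 exon CpGs were at 1.41% ± 0.375 in Young STD mice (n = 5), so that this gene was little methylated wherever it was measured outside the start. Grin2d, an NMDA receptor subunit of early development and interneurons, was at 34.8, 33.4, 33.1, 40.8 and 31.9% over 23 intron CpGs, 26.2% to 36.1% (median 31.8%) in Aged STD and 29.2% to 37.1% (median 33.9%) in Aged ENR mice.

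In all 21 genes for which both regions had at least 5 CpGs, the intron was more methylated than the promoter, as in 94.3% of 4743 protein-coding genes. The gap in Young STD mice ran from 6.27 points in Cnih2 to 87.4 points in Grin3a, with a median of 37.9 points, and the median over all genes was 48.6 points. In 20 of the 21 genes, the mouse with the lowest intron value was above the mouse with the highest promoter value in each of the 3 groups. The exception was Cnih2, a gene of 5654 bases, whose ranges overlapped in both aged groups. Grin1, Grik1, Grm5, Grm3, Cacng5 and Cacng8 had fewer than 5 promoter CpGs, and Gria2, Gria4, Grin1, Grin3b, Grm2, Neto1 and Neto2 fewer than 5 intron CpGs, so these genes were not part of the count.

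The 9 exon regions had a median of 7.74% in Young STD mice, from 1.41% in Cacng8 to 89.9% in Neto2 (5 CpGs), against 56.3% over all genes. Grin1, the subunit that every NMDA receptor needs, had no region in its promoter or introns, but 42 exon CpGs at 5.44% ± 3.45 and 33 flank CpGs at 2.75% ± 1.57 (SD, n = 5). Gria2 had 41 exon CpGs at 1.44% ± 0.821. CpGs were then grouped by distance from the nearest start of their own gene. Those more than 2000 bases upstream of that start and those in downstream flanks were left out. The mean Young STD level was 1.91% in the first 500 bases downstream and 7.76% between 1000 and 2000 bases, where all genes had 22.9%. It was 27.7% between 5000 and 20000 bases (all genes 52.6%) and 36.2% between 20000 and 100000 bases (all genes 53.3%). Beyond 100000 bases, where 13 of the receptor genes had CpGs, it was 56.3% against 46.9%. These are means over CpGs of unequal genes and were not tested.

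**Figure D2:**
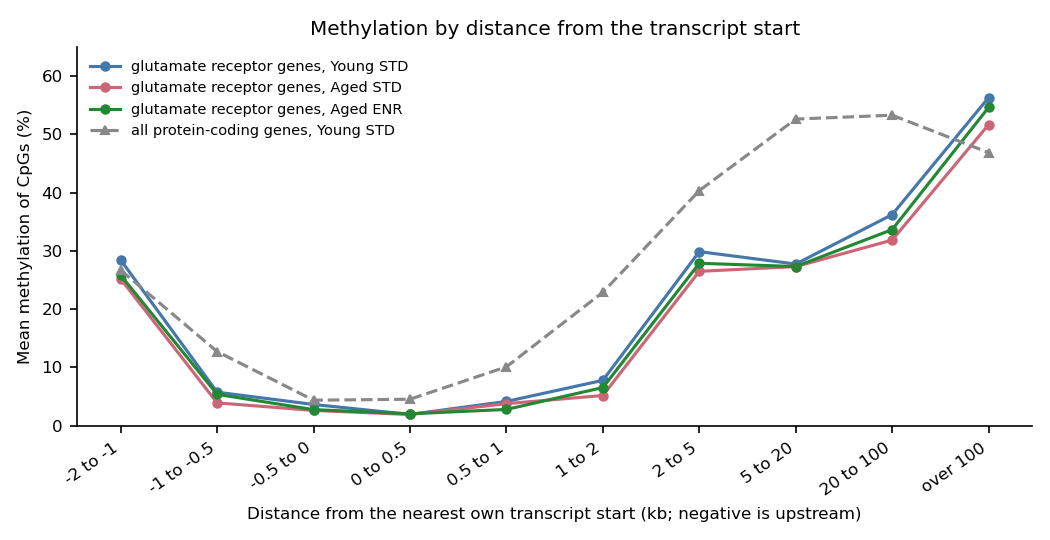
Mean methylation of CpGs (y axis, percent) by distance from the nearest transcript start of their own gene (x axis, kb, unequal steps, negative upstream), for glutamate receptor genes in the 3 groups (solid lines) and all protein-coding genes in Young STD mice (dashed). The receptor genes stay under 8% from 1 kb upstream to 2 kb downstream and reach 56.3% beyond 100 kb in Young STD mice; the aged groups reach 51.7% and 54.6% there.

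The first comparison asked whether methylation of these genes differed with age under standard housing. None of the 68 regions was called at an adjusted p under 0.05 in Aged STD against Young STD mice (limma with Benjamini-Hochberg adjustment over 24715 regions of all genes, of which 0% were called). At an unadjusted p under 0.05 there were 5 receptor gene regions, all lower in Aged STD mice, against 8.74% of all regions. Introns leaned downward as they did over the genome. In 20 of 26 introns (76.9%) the Aged STD mean was lower, with a median difference of -3.96 points, where 78.8% of all introns were lower with a median of -4.20. Promoters were lower in 14 of 27, with a median of -0.0632 points (all promoters -0.0654). No region had Young STD and Aged STD ranges that were apart among the 57 measured in all 12 mice, against 0.803% of all such regions. The shares of receptor gene regions thus stood near those of the genome.

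Averaged per mouse over the 21 introns measured in all mice, the level was 47.9% ± 2.48 (SD, n = 5) in Young STD, 44.1% ± 5.02 (n = 7) in Aged STD and 45.1% ± 2.23 (n = 7) in Aged ENR mice. The groups overlapped, from 44.9% to 51.2%, 36.7% to 51.4% and 42.7% to 49.2% in that order. Over 3751 introns of all genes the same means were 49.2%, 44.1% and 46.1%. The 26 promoters averaged 2.89% ± 0.300, 2.59% ± 0.318 and 2.63% ± 0.392. The mean composition index was 31.6% ± 0.766, 26.6% ± 6.91 and 29.5% ± 3.88 in the same groups, in the same order as the intron means. The index also went with the level at CpGs measured in every mouse. Aged STD mouse 6 had an index of 19.5% and a level of 16.7%, and Aged STD mouse 5 had 38.0% and 21.5%. A fit with the index may thus remove part of a difference in methylation itself, which was not tested. With the index in the fit, 16 of the 26 introns were lower in Aged STD than in Young STD mice, with a median of -1.81 points (all introns -1.77), and 1 intron, higher in Aged STD mice, had an unadjusted p under 0.05.

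**Figure D3:**
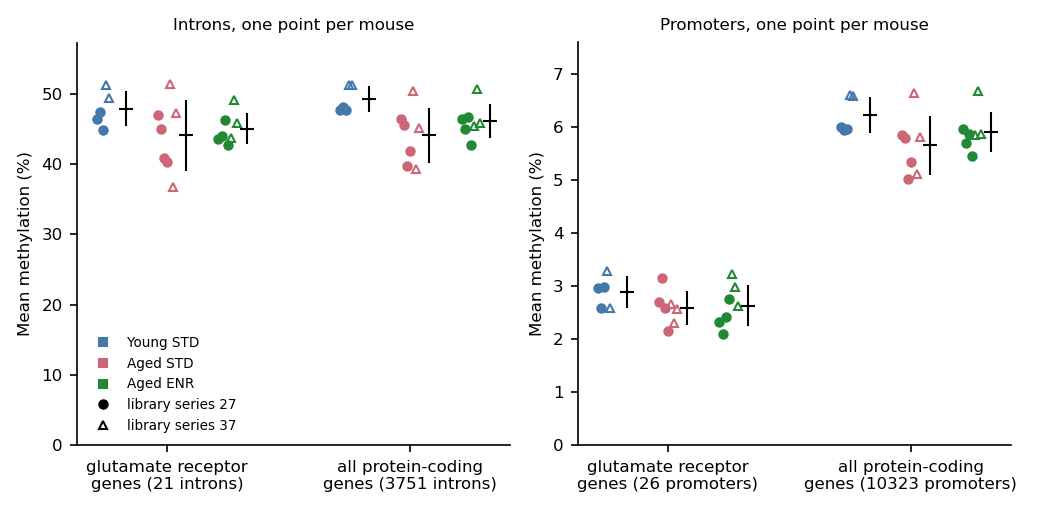
Mean methylation (y axis, percent) per mouse over introns (left) and promoters (right), for the glutamate receptor genes and for all protein-coding genes, with filled circles for library series 27, open triangles for series 37 and black bars for the group mean and SD. Intron means of the receptor genes were 47.9% in Young STD, 44.1% in Aged STD and 45.1% in Aged ENR mice, with overlapping points in all 3 groups.

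Among AMPA receptor genes of the 9 classes, the Gria1 promoter and the Cacng3 promoter were lower in Aged STD mice at an unadjusted p under 0.05. In the list of further genes, the Gria3 promoter (-15.6 points), the Cnih1 promoter (-4.18 points) and the Shisa9 intron (-22.3 points) also passed this threshold. Their limma adjusted p-values were 0.367, 0.555 and 0.407 in that order. In that list, 0 regions passed it in the other direction. The Gria1 promoter (9 CpGs) held 5.89, 2.09, 1.37, 0.926 and 1.57% in Young STD mice, 0% to 1.27% (median 0.765%) in Aged STD and 0.0298% to 7.74% (median 1.79%) in Aged ENR mice. Of the 7 Aged STD mice, 5 were below every Young STD mouse. The difference was -1.62 points (SE 0.744, limma p = 0.0489, adjusted p = 0.572, exact permutation p = 0.00505), and it was -0.737 points without the Young STD mouse at 5.89%. Within library series 27 and 37 it was -2.47 and -0.360 points, and with the composition index in the fit it was -1.61 points. Of 9 other settings on the percent scale, the index included, 1 left it under the unadjusted threshold. The 3 CpGs on the minus strand differed by -4.75 points and the 6 on the plus strand by 0.113 points. Its 28 intron CpGs were at 40.3, 26.5, 24.6, 43.6 and 44.7% in Young STD, 14.2% to 36.9% (median 29.5%) in Aged STD and 23.9% to 39.2% (median 30.3%) in Aged ENR mice, with overlapping groups and a difference of -8.82 points (SE 5.18, exact permutation p = 0.133, limma adjusted p = 0.633), -7.17 and -11.9 in the 2 series.

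Cacng3 encodes a regulatory protein of AMPA receptors close to stargazin, the product of Cacng2. Its promoter (30 CpGs, within the gene at chr7:122670492-122769393) was at 1.97, 3.38, 8.64, 11.1 and 3.04% in Young STD mice. Aged STD mice were at 0.329% to 4.90% (median 1.33%) and Aged ENR mice at 0.865% to 8.29% (median 1.34%). The aged mice crowded near 1%, and 5 of the 7 Aged STD mice were below every young one. The difference was -3.75 points (SE 1.51, limma p = 0.0279, adjusted p = 0.510, exact permutation p = 0.0328). It was -3.67 points in series 27 and -4.01 in series 37, and -2.38 points without the Young STD mouse at 11.1%. The Cacng3 promoter stretch printed above averaged 7.84% in Young STD, 3.03% in Aged STD and 3.39% in Aged ENR mice. With the composition index in the fit, the difference over the whole promoter was -3.03 points, no longer under the unadjusted threshold.

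Of the 8 introns of AMPA receptor auxiliary subunits, Cacng3 included, 5 had a lower mean in Aged STD mice, with a median of -0.964 points. The Cnih3 intron (37 CpGs) was at 40.0, 34.4, 39.6, 29.8 and 38.5% in Young STD, 20.6% to 34.7% (median 32.0%) in Aged STD and 27.6% to 37.1% (median 30.4%) in Aged ENR mice. Its difference was -6.92 points (SE 3.31, exact permutation p = 0.0404, limma adjusted p = 0.578), -8.66 in series 27 and -4.34 in series 37. With the composition index it was -4.56 points, and without centring of the CpGs -13.2 points. The Cacng2 intron (27 CpGs) was at 75.8, 69.7, 72.1, 73.3 and 69.6%, then 56.6% to 75.5% (median 63.7%) and 68.0% to 76.9% (median 69.9%), with a difference of -6.92 points (SE 3.32, exact permutation p = 0.0442, limma adjusted p = 0.580) and every young mouse above 6 of the 7 Aged STD mice. It was -6.84 and -6.97 points in the 2 series. Cacng7 gave the largest value in the other direction. Its 11 intron CpGs were at 17.3, 37.5, 18.3, 42.1 and 28.5% in Young STD, 20.4% to 67.5% (median 40.6%) in Aged STD and 20.7% to 81.0% (median 33.5%) in Aged ENR mice, a difference of 14.0 points (SE 8.12, exact permutation p = 0.148, limma adjusted p = 0.633), 17.7 and 8.37 in the 2 series. In Cacng8 the aged and young introns differed by -0.0800 points (SE 1.42), 1.72 in series 27 and -2.80 in series 37.

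NMDA receptor genes had lower Aged STD means in 4 of 5 introns. Grin2a encodes the subunit that takes over from Grin2b in mature synapses. Its intron CpGs (16, in the gene at chr16:9567898-9995560) were at 47.8, 59.2, 46.3, 73.0 and 61.5% in Young STD, 14.3% to 53.7% (median 47.0%) in Aged STD and 41.0% to 50.4% (median 44.6%) in Aged ENR mice. The difference between Aged STD and Young STD was -15.1 points (SE 6.82, limma p = 0.0457, adjusted p = 0.561, exact permutation p = 0.0505), the largest decrease among the 26 introns. It was -13.8 and -17.9 points in series 27 and 37. Leaving out the Aged STD mouse at 14.3% gave -10.4 points, and adding the composition index gave -9.95 points, in both cases above the unadjusted threshold. The Grin2b intron (64 CpGs) was at 40.5, 37.2, 45.7, 47.1 and 52.7%, then 29.6% to 49.5% (median 37.9%) and 29.4% to 47.1% (median 40.5%), a difference of -7.66 points (SE 4.01, exact permutation p = 0.0694, limma adjusted p = 0.60), -5.73 and -10.8 in the 2 series. The promoters of both genes differed by -1.13 and 0.0232 points (SE 0.861 and 0.431).

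All 5 kainate receptor subunit introns had a lower mean in Aged STD mice, with differences of -2.55 to -13.7 points, and the 4 kainate promoters with a value were also lower. The Grik1 intron (11 CpGs, gene at chr16:87895900-88290265) was at 68.6, 70.3, 82.7, 85.5 and 73.8% in Young STD, 42.3% to 74.8% (median 66.3%) in Aged STD and 65.5% to 82.3% (median 74.4%) in Aged ENR mice. Its difference was -13.7 points (SE 6.30, limma p = 0.0485, adjusted p = 0.572, exact permutation p = 0.0758), with -17.7 and -8.79 points in the 2 series and -6.90 points with the composition index, no longer under the unadjusted threshold. The groups overlapped, although 4 mice of the Aged STD group were lower than the lowest young mouse. The Grik4 intron, with 160 CpGs the best covered of all, was at 39.6, 40.0, 40.5, 44.0 and 40.3% in Young STD, 29.7% to 43.6% (median 35.2%) in Aged STD and 32.9% to 40.9% (median 38.4%) in Aged ENR mice. Its difference was -5.01 points (SE 3.03, exact permutation p = 0.0619, limma adjusted p = 0.643), and 6 of 7 Aged STD values were lower than any young value. In the 2 series it was -5.34 and -4.71 points. Its promoter (23 CpGs) was at 0.220, 0.510, 3.0, 0.700 and 9.39% in Young STD, 0.455% to 1.30% (median 0.723%) in Aged STD and 0.347% to 2.05% (median 1.19%) in Aged ENR mice, so that a single young mouse set its mean apart.

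Among metabotropic and delta receptor genes, the Grm5 intron passed the unadjusted threshold. Grm5 is the group I receptor of hippocampal neurons that signals through phospholipase C. Its 15 intron CpGs (gene at chr7:87584168-88134907) were at 55.3, 66.7, 66.1, 74.4 and 71.4% in Young STD, 47.4% to 68.5% (median 53.2%) in Aged STD and 47.3% to 62.4% (median 55.1%) in Aged ENR mice. The difference was -10.7 points (SE 4.59, limma p = 0.0372, adjusted p = 0.534, exact permutation p = 0.0455), -8.72 and -13.9 points in the 2 series, and -6.08 points with the composition index and -18.1 without centring, neither under the unadjusted threshold. The lowest young mouse was above 4 of the 7 Aged STD mice. The Grm5 stretch printed above stayed nearly fully methylated, at 97.8%, 92.6% and 93.7% in the 3 groups. Group III introns were split, 2 lower and 2 higher. The Grid1 intron (61 CpGs) was at 39.5, 37.4, 42.3, 45.0 and 38.1%, then 25.3% to 42.2% (median 36.8%) and 30.6% to 46.5% (median 37.2%), a difference of -6.51 points (SE 3.38, exact permutation p = 0.0518, limma adjusted p = 0.599), -6.42 and -6.76 in the 2 series.

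**Figure D4:**
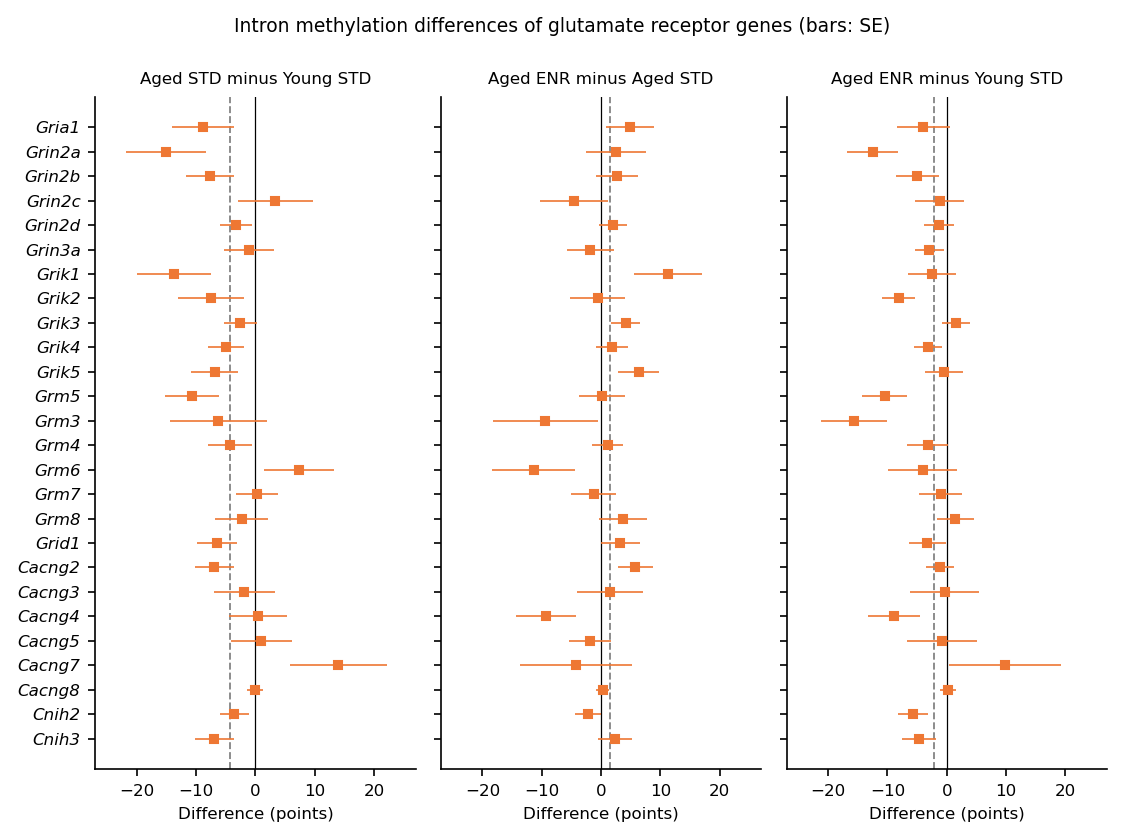
Difference in mean intron methylation (x axis, percentage points, squares, with SE as bars) for 26 glutamate receptor genes in the 3 comparisons, with the solid line at 0 and the dashed line at the median over introns of all protein-coding genes. For Aged STD minus Young STD, 20 of 26 squares lie left of 0 (Grin2a at -15.1, Cacng7 at 14.0), and for Aged ENR minus Young STD 22 of 26 do.

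The second comparison asked whether enriched housing went with a different methylation in aged mice. It shares the Aged STD mice with the age comparison, so an unusual value in those mice moves both in opposite directions. By the study's methods, enriched mice of an experiment lived in a shared enclosure, so housing and enclosure cannot be told apart. None of the 68 regions was called (limma, 0% of 24720 regions of all genes). At an unadjusted p under 0.05 there was 1 region, a flank of Grin2d, against 4.61% of all regions. No receptor gene region had non-overlapping aged groups among 55 measured in all 14 mice, against 0.0585% of all regions. Introns were higher in Aged ENR mice in 16 of 26, with a median difference of 1.29 points (all introns 1.49), and the mean per mouse over introns differed by 0.983 points, which became -0.249 points when Aged STD mouse 6 was left out.

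The Grin2d flank (21 CpGs) was at 2.39, 3.56, 2.56, 4.52 and 2.38% in Young STD, 1.12% to 7.15% (median 4.94%) in Aged STD and 0.261% to 4.11% (median 2.01%) in Aged ENR mice. All groups were low and overlapped, and the difference with housing was -2.79 points (SE 0.985, limma p = 0.0127, adjusted p = 0.956, exact permutation p = 0.0210), -3.21 in series 27 and -2.23 in series 37. Over the CpGs measured in all 19 mice it was -1.36 points, no longer under the unadjusted threshold. The Gria1 promoter, described above, was 2.45 points higher in Aged ENR mice (SE 1.17, exact permutation p = 0.0886, limma adjusted p = 0.956), 1.64 in series 27 and 3.53 in series 37. The Grik1 intron was 11.2 points higher (SE 5.77, exact permutation p = 0.0985, limma adjusted p = 0.956), but by 19.5 points in series 27 and 0.876 in series 37, and by 6.05 points with the composition index. The Cacng2 intron was 5.74 points higher (SE 2.97, exact permutation p = 0.0414, limma adjusted p = 0.956), 6.40 and 4.88 in the 2 series.

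In the other direction, Cacng4, another regulatory protein of AMPA receptors, had 13 intron CpGs at 39.3, 47.3, 41.6, 35.3 and 40.2% in Young STD, 26.1% to 51.5% (median 44.5%) in Aged STD and 14.5% to 44.5% (median 32.5%) in Aged ENR mice. This made -9.35 points with housing (SE 5.07, exact permutation p = 0.102, limma adjusted p = 0.956), -13.4 in series 27 and -3.99 in series 37. With the composition index it was -12.5 points, under the unadjusted threshold. The Grik5 intron (16 CpGs) was at 37.6, 41.9, 34.5, 47.5 and 41.8%, then 26.2% to 47.7% (median 32.9%) and 34.2% to 45.7% (median 39.2%), a difference of 6.34 points (SE 3.47, exact permutation p = 0.0740, limma adjusted p = 0.956), 8.83 and 3.03 in the 2 series, 4.13 with the composition index and 12.9 without centring. The Grin2a and Grm5 introns, lower in Aged STD than in Young STD mice, differed with housing by 2.56 points (SE 5.06) and 0.211 points (SE 3.88). The 2 series went opposite ways in both, with 6.27 and -2.40 points for Grin2a and 0.827 and -0.609 for Grm5.

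The last comparison set Aged ENR mice against Young STD mice, which differ in both age and housing, and shares its mice with the comparisons above. None of the 68 regions was called (limma, 0% of 24717 regions of all genes). At an unadjusted p under 0.05 there were 5, all introns and all lower in Aged ENR mice, against 7.19% of all regions. No region had non-overlapping groups among 57, against 0.522% of all regions. Introns were lower in 22 of 26 (84.6%), with a median of -3.07 points, where 70.7% of all introns were lower with a median of -2.23.

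Grin2a again showed one of the largest values, with 5 of 7 Aged ENR mice below every Young STD mouse and a difference of -12.5 points (SE 4.29, limma p = 0.0121, adjusted p = 0.560, exact permutation p = 0.0101), -7.5 and -20.3 points in the 2 series. With the composition index it was -11.7 points. Grm5 differed by -10.4 points (SE 3.77, limma p = 0.0160, adjusted p = 0.593, exact permutation p = 0.0240), -7.90 and -14.5 in the 2 series. The Grik2 intron (19 CpGs), of a kainate receptor subunit found at mossy fibre synapses, was at 63.4, 72.4, 77.6, 70.7 and 67.6% in Young STD, 52.7% to 83.2% (median 57.9%) in Aged STD and 58.3% to 65.2% (median 62.7%) in Aged ENR mice. It differed by -8.08 points (SE 2.78, limma p = 0.0124, adjusted p = 0.560, exact permutation p = 0.00505), -8.34 and -7.59 points in the 2 series, and 7 of 10 other settings left it under the unadjusted threshold. The Aged ENR mice were tightly grouped, and 4 of them lay below every young mouse.

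Grm3, a group II receptor of neurons and astrocytes, had 6 intron CpGs at 79.6, 87.2, 82.7, 98.2 and 86.6% in Young STD, 46.6% to 103.2% (median 82.7%) in 6 Aged STD and 57.6% to 82.6% (median 76.4%) in 5 Aged ENR mice, the others having fewer than 3 of these CpGs. The difference was -15.6 points (SE 5.51, limma p = 0.0162, adjusted p = 0.593, exact permutation p = 0.0159), -12.2 and -20.8 in the 2 series, and -16.4 points with the composition index, no longer under the unadjusted threshold. The Cnih2 intron (11 CpGs) was at 6.02, 8.67, 2.80 and 13.6% in the 4 Young STD mice with a value, 0% to 11.4% (median 3.90%) in Aged STD and -3.85% to 8.58% (median 2.20%) in Aged ENR mice. It differed by -5.76 points (SE 2.53, limma p = 0.0422, exact permutation p = 0.0758, adjusted p = 0.676), -4.12 and -11.2 in the 2 series, or -3.81 points without the Young STD mouse at 13.6% and -5.14 points with the composition index, in both cases above the unadjusted threshold. The 17 exon CpGs of Grik5 were at 17.8, 9.06, 7.76, 5.90 and 24.1% in Young STD, 3.20% to 14.1% (median 6.13%) in Aged STD and 1.92% to 12.3% (median 5.08%) in Aged ENR mice. Their difference was -6.69 points (SE 3.24, exact permutation p = 0.0823, limma adjusted p = 0.711), -4.26 and -10.8 in the 2 series, or -3.89 points without the Young STD mouse at 24.1%.

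At the level of single CpGs, 1527 receptor gene CpGs were tested for age, 1527 for housing and 1514 for Aged ENR against Young STD, and none was called at an adjusted p under 0.05 with a difference over 25 points (limma, 0%, 0% and 0% of all CpGs in the 3 comparisons). For age, 149 differed by more than 25 points (9.76%, against 9.37% of all CpGs), 123 of them lower in Aged STD mice, and 65 had an unadjusted p under 0.05 (4.26%, against 4.42%), 55 lower and 10 higher. Those over 25 points were mostly intronic, with 127 of the 746 intron CpGs tested (17.0%) and 6 of 477 promoter CpGs (1.26%). The same shares over intron and promoter CpGs of all genes were not computed. Of the 877 receptor gene promoter CpGs, 91.8% were under 10% in Young STD mice and so could not fall by 25 points. With the composition index in the fit, the direction was more even, with 99 lower and 70 higher by more than 25 points, and 33 lower and 45 higher at an unadjusted p under 0.05. For housing, 126 differed by more than 25 points (8.25%, against 7.17%), 81 of them higher in Aged ENR mice, and 26 had an unadjusted p under 0.05 (1.70%, against 2.25%), 15 lower and 11 higher. With the composition index in the fit these were 49, with 34 lower and 15 higher. For Aged ENR against Young STD the counts were 125 (8.26%, against 7.62%), 85 of them lower, and 53 (3.5%, against 3.95%). By gene, Grik4 had 27 CpGs over 25 points with age of 164 tested, Grik3 20 of 124, Grid1 11 of 68, Gria1 10 of 39 and Grin2b 10 of 74. Gria2, Grin3b, Grm3, Grm7, Cacng5, Cacng8 and Neto1 had 0. Such counts depend on the starting level of a gene's CpGs and were not set against other genes.

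One CpG of these genes had groups that did not overlap. Among CpGs measured in all mice compared, it was 1 of 247 receptor gene CpGs for age (0.432% of 83497 CpGs of the table had non-overlapping groups) and 1 of 266 for housing, where this held for 0.0162% of 80120 CpGs, or 13 in all. For Aged ENR against Young STD there was none among 260, against 0.323% of 97751. The CpG lies in an intron of Grik4 (gene at chr9:42518135-42944493), a kainate receptor subunit enriched at mossy fibre synapses, with its cytosine on the plus strand at position 42569116 of chromosome 9. In the stretch printed above, it is the first CpG in capitals. Young STD mice were at 55.9, 27.3, 59.3, 97.2 and 73.7%, Aged STD mice at 18.5, 0, 0, 0, 0, 0 and 16.7%, and Aged ENR mice at 57.9, 51.2, 100, 29.4, 20.9, 69.4 and 52.8%. Every Aged STD mouse was thus below every mouse of the other groups, and 5 of 7 were at 0%.

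The difference at this CpG was -57.6 points with age (SE 12.9, limma p = 0.000701, adjusted p = 0.760, exact permutation p = 0.00126), -42.8 points in series 27 and -79.9 in series 37. With housing it was 49.5 points (SE 13, limma p = 0.00180, adjusted p = 0.769, exact permutation p = 0.000583), 55.0 and 42.2 points in the 2 series. Aged ENR and Young STD mice differed by -8.14 points (SE 16.1, exact permutation p = 0.585), but by 12.2 points in series 27 and -37.7 in series 37, in opposite directions. The rule that named it picks large differences and groups without overlap, and its adjusted p-values did not pass in any comparison. Groups without overlap always give the smallest exact permutation p possible. The exact p-values for age and housing therefore follow from the choice and are no support. The other measured CpGs of the stretch, looked at because of this one, were less clear. At position 42569133 the age and housing differences were -42.6 and 17.4 points, at 42569262 (minus strand) -17.3 and 12.1 points, and at 42569265 (minus strand) -27.2 and -0.703 points, with overlapping groups each time. The mean of the 4 CpGs, the one picked by the rule included, was 45.9% in Young STD, 9.76% in Aged STD and 29.3% in Aged ENR mice. The other 156 intron CpGs of Grik4 are spread over the gene, and its whole-intron value differed by -5.01 and 1.82 points.

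**Figure D5:**
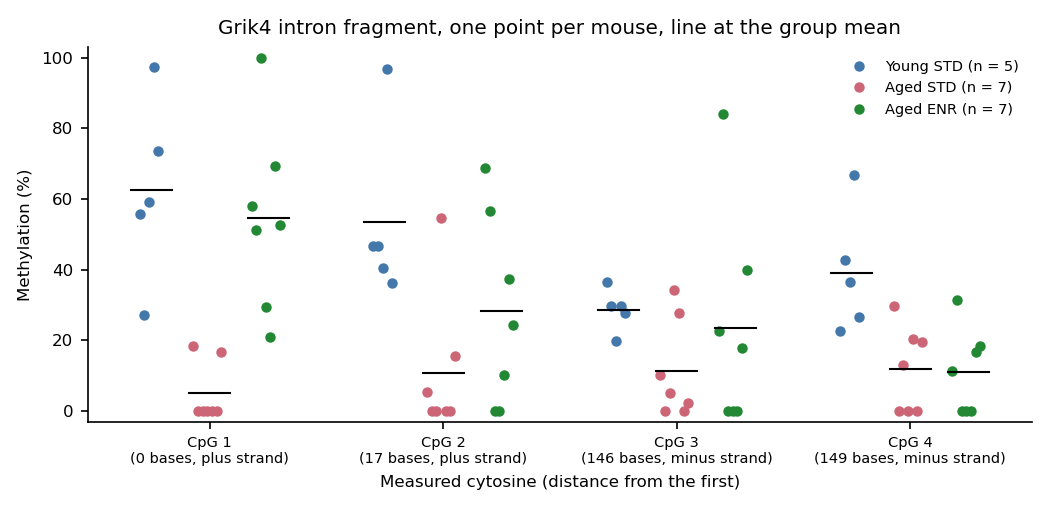
Methylation (y axis, percent) of the 4 measured CpGs in the Grik4 intron stretch, in order along the chromosome with the distance from the first (x axis), 1 point per mouse and a line at each group mean. At CpG 1 the 7 Aged STD mice lie at 0% to 18.5%, below all Young STD (27.3% to 97.2%) and Aged ENR mice (20.9% to 100%), whereas the groups overlap at the other 3 CpGs.

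The other single CpGs named here, taken from those measured in all mice of a comparison, had overlapping groups, and larger differences occurred among CpGs that some mice lacked. A Grik1 intron CpG (position 88212400 of chromosome 16, the capitals in the Grik1 stretch) was at 78.9, 90.2, 90.9, 100 and 65.2% in Young STD mice, at 0% to 100% (median 39.6%) in Aged STD and at 41.7% to 83.1% (median 72.4%) in the 6 Aged ENR mice with a value, a difference of -44.7 points with age (limma adjusted p = 0.760). Among CpGs measured in all 12 mice, the largest values in the other direction with age were 18.4 points in a Cacng7 exon (position 3367167 of chromosome 7), 14.1 points in a Cacng3 intron (122675227 of chromosome 7) and 13.4 points in the same Cacng7 exon (3367159). With housing, among CpGs measured in all 14 mice and after the Grik4 CpG, they were 26.4 points at another Grik4 intron CpG (42703136) and 21.8 points in a Grm8 intron (28051964 of chromosome 6), and in the other direction -17.5 points in a Grin1 flank (25320523 of chromosome 2), -14.9 points at the Cacng7 exon CpG 3367167 and -14.3 points in the Grin2c promoter (115266967 of chromosome 11). For Aged ENR against Young STD, with the same limit, the lowest were -41.2 points in Grik4 (42619838), -31.2 points in a Grid1 intron (35195733 of chromosome 14) and -27.9 points at Grik4 42569265. The highest were 32.4 and 19.4 points at 2 CpGs of a Grin2c intron (115258625 and 115258639 of chromosome 11) and 21.2 points in Grik4 (42664306). The smallest adjusted p over all receptor gene CpGs was 0.760 for age, 0.769 for housing and 0.776 for Aged ENR against Young STD.

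Further genes of glutamatergic transmission were taken from a list of 53 scaffold, signalling, transporter and other receptor genes, of which 52 had 105 regions. None was called in any comparison. At an unadjusted p under 0.05 (limma), 15 regions were lower and 0 higher in Aged STD than in Young STD mice (8.74% of all regions passed in either direction), 2 were lower and 1 higher with enriched housing in aged mice (4.61% of all regions), and 11 were lower and 0 higher in Aged ENR than in Young STD mice (7.19% of all regions). Their introns were lower with age in 34 of 35, with a median of -6.29 points, where 78.8% of the introns of all genes were lower with a median of -4.20 points. For this list the fit was not repeated with the composition index. An intron of Dlg1, which encodes the scaffold SAP97, was at 52.0% ± 6.83 in Young STD, 27.3% ± 7.34 in Aged STD and 34.4% ± 12.1 in Aged ENR mice. An exon of Camk2b, a kinase activated by calcium entry through NMDA receptors, was at 54.8% ± 9.69, 20.3% ± 11.8 and 27.8% ± 20.1. The promoter of Gria3, an AMPA receptor subunit on the X chromosome, was at 28.8% ± 3.92, 13.2% ± 9.26 and 21.9% ± 7.5.

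Marker genes of the cell types of the dentate gyrus were examined in the same way, since expression was not measured. Of 22 such genes, 16 had 34 regions, and none was called. At an unadjusted p under 0.05, 3 of the 34 regions were lower with age, a share near the 8.74% of all regions that passed. They were an intron of the granule neuron gene Prox1 (25.7% ± 7.54 in Young STD, 14.6% ± 7.97 in Aged STD and 19.5% ± 3.48 in Aged ENR mice), an intron of the oligodendrocyte gene Mbp (36.4% ± 4.22, 27.9% ± 7.19 and 29.2% ± 4.40) and a flank of the astrocyte gene Gjb6 (75.1% ± 18.7, 56.9% ± 9.76 and 62.3% ± 16.5). Of the 11 marker introns, 10 had a lower mean with age, with a median of -5.79 points (78.8% and -4.20 points over all introns). With housing 1 of the 11 had a lower mean, with a median of 1.29 points (33.3% and 1.49 points over all introns), and 1 of the 34 regions had an unadjusted p under 0.05 (4.61% of all regions), an intron of the granule neuron gene Dock10 at 12.5 points (limma adjusted p = 0.956). In Aged ENR against Young STD mice, 3 of the 34 regions had an unadjusted p under 0.05 (7.19% of all regions), the Mbp and Dsp introns at -7.28 and -5.53 points and a C1ql2 exon at 3.90 points, and 8 of 11 marker introns had a lower mean (70.7% of all introns). Among introns measured in all mice, the mean of 4 granule neuron marker introns was 24.2% to 30.3% in Young STD, 16.1% to 27.1% in Aged STD and 24.0% to 37% in Aged ENR mice. The other types had 1 such intron each. That of the interneuron markers was at 8.30% to 20.7%, 14.7% to 26.1% and 13.6% to 21%. Group means were 55.1%, 49.3% and 49.7% for the astrocyte intron and 36.4%, 27.9% and 29.2% for the oligodendrocyte intron. They were 24.6%, 20.7% and 21.6% for the microglia intron. The part of the cell types in the values of the receptor genes was not tested.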

How the data were processed

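Percentages of methylation per CpG for 19 mice were used as the authors deposited them. The authors built RRBS libraries, trimmed and aligned the reads to mm10 and by the study's methods kept cytosines with at least 10 reads, below a ceiling on coverage, in at least 3 mice per group. The submitters' processing notes name Trim Galore 0.4.0, cutadapt 1.8.1, Bismark 0.16.1 and methylKit 1.5.2. The deposited percentages come without read numbers, so depth above that minimum is unknown. No value column was left unmapped (0).

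CpGs were placed by GENCODE M21 in promoters (within 1000 bases of a transcript start of their own gene), then exons, introns and flanks (within 2000 bases). A region needed 5 CpGs and a mouse 3 of them. Each CpG was centred on the mean of its 3 group means, deviations were averaged per mouse and the region mean was added back. Single CpGs and regions were tested between the 2 groups compared with limma 3.58.1 (R 4.3.3, trended variance, two-sided, Benjamini-Hochberg adjustment over all CpGs or regions of the table). The threshold for calling a region was an adjusted p of 0.05, and a CpG also had to differ by over 25 points. The authors' own test used reads and could not be run. Exact permutation tests (two-sided, scipy 1.17.1, Python 3.11.15) were run over mice for single regions and CpGs. The labels give no litters or cages, and enriched mice shared an enclosure, so p-values measure the spread between these mice, not between cages. On simulated data for the age comparison with 16620 regions, 51 of 200 regions changed by 15 points were recovered, with 2 false calls.

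Regions were named with values per mouse if they were the promoter or intron of Gria1, Gria2, Grin1, Grin2a, Grin2b, Grik4, Grm2, Grm5, Grid1, Cacng8, Cnih2 or Neto2, if they were among the 6 receptor gene regions with the smallest p in a comparison, or if they were among the 4 highest or 4 lowest promoters or introns in Young STD mice. Single CpGs measured in all mice compared were named for the 3 largest differences in each direction, or where groups did not overlap. Genes and lists were chosen with earlier results of these data known.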

Additional observations from a re-analysis of the deposited data

Results flagged for a closer look

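In 41 measures of named regions and CpGs, the highest or lowest mouse of a group was set against the rest of its group by Dixon's criterion. A mouse stood apart in 7 of 123 groups, where chance gives about 1 in 20. Of these, 4 were in Young STD, 1 in Aged STD and 2 in Aged ENR mice.

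Young STD mouse 1 had 5.89% at the Gria1 promoter, where the other young mice had 0.926% to 2.09%, and 2.76% at the Grm7 promoter, where the others had -0.141% to 0.512%. Young STD mouse 4 had 19% at the Grm4 promoter against 6.43% to 7.29%, and 44.0% in the Grik4 intron against 39.6% to 40.5%. Aged STD mouse 4 had 14.3% in the Grin2a intron, and the other 6 lay between 40.6% and 53.7%. Aged ENR mouse 5 had 8.29% at the Cacng3 promoter against 0.865% to 2.74%, and Aged ENR mouse 7 had 3.01% at the Gria2 promoter against -0.0717% to 1.04%. The cause of these values was not tested.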

How the results depend on the processing

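No receptor gene region or CpG was called under any alternative that was run. Of the recomputed values that answer a comparison, 237 stayed within the spread or count limit and 2 moved. The limits were wide, as a mean difference counted as stayed if it shifted by less than 1 SD between mice. The mean intron differences of -7.85 points with age and -0.249 points with housing, given below, counted as stayed. All counts of calls were 0 and so could only stay. With CpGs measured in all 19 mice, which left 8 promoters, the mean promoter difference was 0.170 points for age (otherwise -0.298) and 0.188 points for Aged ENR against Young STD (otherwise -0.254). Among single named regions and CpGs, 487 values kept their direction and 1 reversed: for Aged ENR against Young STD, the Grik4 CpG ranged from -17.0 to 0.501 points as mice were left out in turn, and was above 0 without Young STD mouse 4. These regions and CpGs were picked for a small p or a large difference, which leaves little room for a reversal. Over the other settings on the percent scale, the unadjusted p for age stayed under 0.05 in 9 of 10 for the Cacng3 promoter, 7 of 10 for the Grm5, 6 of 10 for the Grin2a and 5 of 10 for the Grik1 intron, and in 1 of 9 for the Gria1 promoter. For housing this held in 10 of 11 for the Grin2d flank. For Aged ENR against Young STD it held in 10 of 10 for the Grin2a and Grm5, 7 of 10 for the Grik2, 6 of 8 for the Grm3 and 6 of 10 for the Cnih2 intron. Leaving out mice gave -5.00 to -2.55 points for the mean intron difference with age, and -0.249 to 2.20 points with housing, negative without Aged STD mouse 6. Without centring CpGs, the mean intron difference with age was -7.85 points. With the replicate number as a block, 0 regions and 0 CpGs were called in each comparison. Deviations of same-numbered mice from their groups had low correlations (-0.0719 to 0.153 for age, -0.248 to 0.0868 for housing and -0.0753 to 0.0528 for Aged ENR against Young STD). The mouse of the same number was the best match in 2 of 5 pairs, 2 of 7 and 0 of 5 in that order. So few pairs cannot exclude a pairing by number. Without the variance trend, 120 CpGs of the whole table were called for age, 26 for housing and 92 for Aged ENR against Young STD, and with all 3 groups in one fit 34, 0 and 39, of which 0 lay in receptor genes.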
